A study of Mus musculus with 2 samples.

Results

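Brown and white fat genes were followed in whole adrenal gland by long-read RNA sequencing, in which a read can span a transcript from end to end. The gene names Fabp4, Ucp1, Cidea, Adipoq, Plin1, Pparg, Pparg1a, Ppargc1a, Lpl and Cd36 were looked up in the gene name column of the transcript tables of both libraries, and every transcript model under these names was kept. Of the 10 names, 9 had reads, against 18053 known genes with reads in the series, and 8 had reads in both libraries. The name Pparg1a matched no gene in either table, and Ppargc1a had 0 reads in replicate 1 and 1 read in replicate 2. The mice were 4-day-old males of the strain B6CASTF1/J, the F1 offspring of C57BL/6J and CAST/EiJ parents, with no treatment. All belong to 1 group, measured in 2 libraries that are labelled biological replicates 1 and 2, so the data hold levels in 1 tissue and differences between 2 libraries, and no contrast of conditions. The tissue descriptions name a different male for each library, while both library descriptions name the same male under a common donor identifier. The p-values therefore compare these 2 libraries with counting error alone, and a difference between them may be technical. How the gland was separated from the tissue around it is not given in the sources used here.

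Adipocytes store fatty acids as triglyceride in lipid droplets. White adipocytes keep mostly 1 large droplet and secrete hormones such as adiponectin and leptin. Brown adipocytes hold many small droplets and mitochondria with the uncoupling protein Ucp1, which turns the proton gradient into heat, and newborn mice rely on them for warmth. Brown fat of the mouse also lies close to the kidney and the adrenal gland. The nuclear receptor gene Pparg drives adipocyte identity in both kinds of fat, and its targets include Fabp4, Plin1, Adipoq, Lpl and Cd36. Several members are not made by adipocytes alone, since endothelium and macrophages also make Fabp4 and Cd36 and macrophages and muscle make Lpl.

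Replicate 1 held 707726 reads, 688436 of them from mouse genes, and replicate 2 held 832552, 810818 of them from mouse genes. Levels are in CPM, reads per 1000000 mouse reads, and 1 read equalled 1.45 and 1.23 CPM. Each long read was counted as 1 cDNA molecule, so reads were not divided by transcript length. Whether short and long transcripts were recovered equally was not tested. Fabp4-201 has 896 bases and Ppargc1a-203 has 6464, so the order of levels between genes carries this limit. All 6 markers of adrenal cortex were abundant, with a sum of 45794 CPM (replicate 1) and 31227 CPM (replicate 2). The libraries differed in other tissues: 8 liver genes summed to 277 and 14040 CPM, and 10 striated muscle genes to 1708 and 2965 CPM. Liver and muscle genes therefore moved with the fat genes that were higher in replicate 2, and their part in those differences was not tested.

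Most Fabp4 reads covered only the 3′ part of the gene. Fabp4 (ENSMUSG00000062515.3) encodes the fatty acid carrier of the adipocyte cytosol and lies on the minus strand at chr3:10204088-10208576 (GRCm38, mm10). Its full-length transcript Fabp4-201 has 4 exons and 896 bases and encodes 132 residues. The coding parts of its exons are printed because the reads divide along them, with the start codon in exon 1 and the stop codon in exon 4 in capitals. The sequences are those of the GENCODE M21 transcript, on the gene's strand, at chr3:10208439-10208511, chr3:10205950-10206122, chr3:10205241-10205342 and chr3:10204520-10204570.
Fabp4 exon 1: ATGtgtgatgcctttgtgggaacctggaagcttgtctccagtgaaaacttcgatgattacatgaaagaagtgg
Fabp4 exon 2: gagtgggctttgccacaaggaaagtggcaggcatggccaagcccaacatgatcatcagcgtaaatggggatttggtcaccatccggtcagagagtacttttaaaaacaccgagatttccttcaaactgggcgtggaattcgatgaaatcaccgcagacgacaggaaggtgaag
Fabp4 exon 3: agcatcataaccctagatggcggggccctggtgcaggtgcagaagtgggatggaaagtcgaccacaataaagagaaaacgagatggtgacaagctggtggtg
Fabp4 exon 4: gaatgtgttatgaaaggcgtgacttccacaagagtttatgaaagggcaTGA

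Fabp4 had 649 reads in replicate 1 and 1007 reads in replicate 2. Of these, 547 and 820 were in incomplete matches, models whose splice junctions match a known transcript only in part. That is 84.3% (95% Wilson interval 81.3 to 86.9) and 81.4% (78.9 to 83.7). The difference of -2.85 percentage points from replicate 1 to replicate 2 did not pass the test (Fisher's exact, two-sided, adjusted p = 0.691). Among the 2813 genes with at least 50 reads in each library, the median share was 4.29% and 5.44%, and 18 and 20 genes, Fabp4 included, had a share at least as high. Intervals cover counting error only. No molecular identifiers tell copied reads from separate molecules, so copied reads would make the intervals too narrow.

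Incomplete Fabp4 models held the end of the gene and lacked its start. Models of exons 3 and 4 alone took 421 of the 547 reads in replicate 1, or 77.0% (73.3 to 80.3), and 645 of 820 in replicate 2, or 78.7% (75.7 to 81.3). Models of exons 2 to 4 took 126 reads (23.0%) and 173 reads (21.1%). All incomplete models covered the stop codon, but their recorded 3′ ends are not those of single reads. The first exon was held by 0 incomplete reads in replicate 1 and 1 in replicate 2. In the sequences above, a model that begins at exon 3 lacks the start codon and the first 82 whole codons, and exons 3 and 4 hold 1 further ATG in the reading frame. The full-length Fabp4-201 had 86 and 161 reads, so that the whole annotated coding chain was present in 13.3% and 16.0% of Fabp4 reads. Fabp4-202, an annotated transcript of 1 exon that keeps all introns, had 9 and 15 reads.

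**Figure D1:**
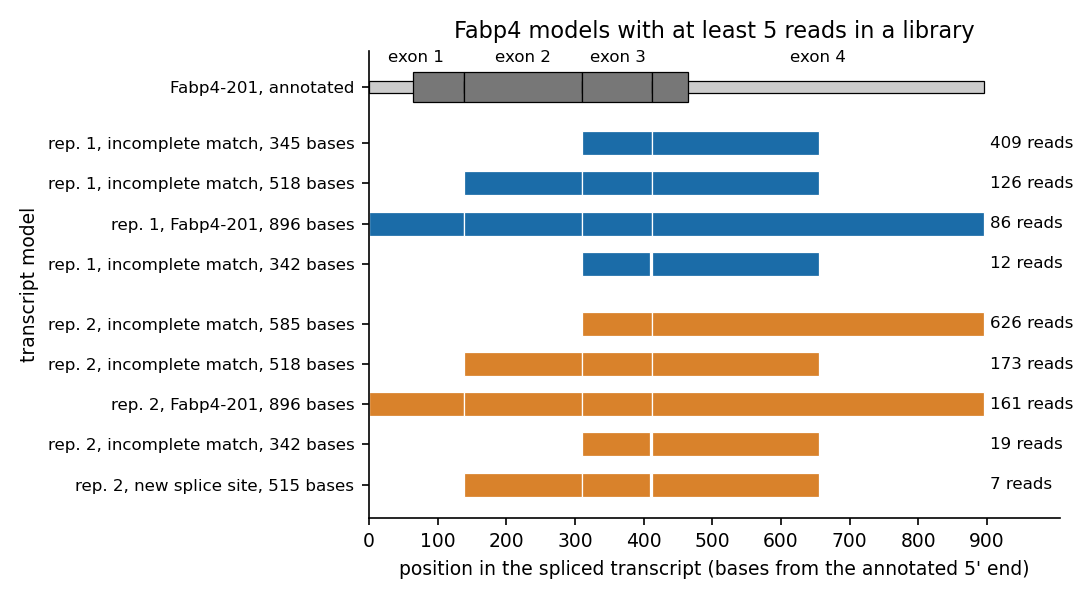
Fabp4 transcript models with at least 5 reads in a library, without Fabp4-202, along the spliced annotated transcript; the x axis is the distance in bases from its 5′ end, each bar is the part of each exon that a model holds, and the number of reads stands at the right. In the annotated transcript the thick parts are coding. The model of exons 3 and 4 has the most reads in both libraries, 409 and 626.

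The recorded 3′ ends of the incomplete models are those of annotated transcripts and not of single reads. In replicate 1 every incomplete model ended at position 10204328, the annotated end of Fabp4-202, and in replicate 2 the leading model ended at 10204088, the end of Fabp4-201. At a requirement of 90% of the last exon instead of 50%, 0% of the incomplete reads of replicate 1 and 76.3% of those of replicate 2 held it. The length of the 3′ untranslated region can therefore not be read from these models, whereas the 5′ exons they lack follow from the splice junctions.

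A second donor position of Fabp4 exon 3 was recorded in both libraries. It lies 3 bases inside the exon, at position 10205244 instead of 10205241, and removes 1 codon without shifting the frame. The border is printed because both positions fall within a repeat. Skipped bases are in capitals, and the annotated intron begins right after them (chr3:10205217-10205264, minus strand, from the retained-intron transcript).
Fabp4 exon 3 to intron 3: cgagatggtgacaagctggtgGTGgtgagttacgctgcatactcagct
Of the reads with this intron, 15 of 640 in replicate 1 had the inner position, or 2.34% (1.43 to 3.83), and 28 of 990 in replicate 2, or 2.83% (1.96 to 4.06). They were spread over 3 models in each library. The annotated donor took 97.5% and 97.1%. A further 1 read in replicate 1 ended the exon 6 bases inside it, and 1 read in replicate 2 ended it 4 bases beyond it. Both the annotated and the inner position begin an intron with GT. Because the skipped bases are repeated, a read or an alignment that lost 3 bases there would give the same junction. Whether the inner position is a donor in use was not tested.

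Counted over all models, Fabp4 was the most abundant member, and from known models alone Ucp1 was. Replicate 1 had 943 CPM of it and replicate 2 had 1242 CPM, a mean of 1092 ± 212 CPM (SD, n = 2), and ranked 86th and 58th of all known genes. Ucp1 followed at 313 ± 116 CPM, Cidea at 293 ± 61.4, Plin1 at 246 ± 28.4, Lpl at 166 ± 11.0, Adipoq at 117 ± 23.3, Cd36 at 108 ± 3.93 and Pparg at 30.3 ± 4.44 CPM. In this count over all models, Fabp4 and Pparg stood apart at the ends of the order of the members with reads in both libraries. Neither overlapped another of these members in either library. Ucp1, Cidea and Plin1 changed places between the libraries, and so did Adipoq and Cd36. The 10 names together summed to 2092 and 2639 CPM, or 2366 ± 387 CPM, of which Fabp4 was the largest share. From known models alone, with CPM over the reads of known models, the sum was 1518 CPM, and Ucp1 led at 397 CPM before Fabp4 at 248 CPM and Cidea at 243 CPM.

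**Figure D2:**
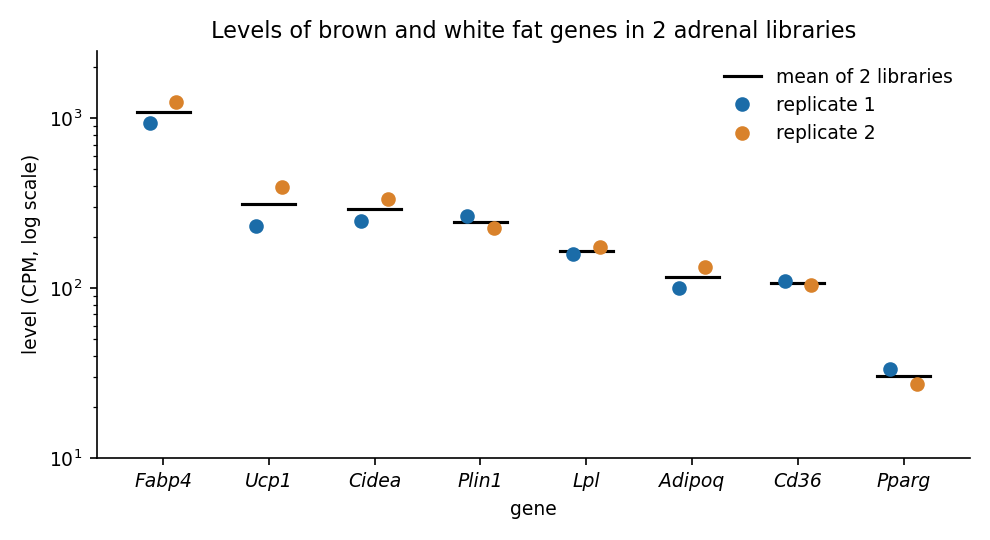
Level of each fat gene with reads in both libraries, in CPM on a log scale; points are the libraries and black lines are their means. Fabp4 lies above and Pparg below all others in both libraries, and Ucp1 has 231 CPM in replicate 1 and 395 CPM in replicate 2.

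Differences between the libraries were tested for all 8276 genes with at least 20 reads in total, and a call required a log2 ratio of 1 or more in size together with an adjusted p below 0.05. None of the 8 fat genes tested was called, where 3.23% of all tested genes were (267 genes, 187 higher and 80 lower in replicate 2) and 2.26% were called higher. On the Benjamini-Hochberg adjusted p of Fisher's exact test alone, 3 of 8 passed, all higher in replicate 2, against 7.93% of all tested genes in both directions and 3.83% in that direction. These shares are not matched for reads, nor are those of the gene lists below. In replicate 1 Fabp4, Ucp1 and Cidea, which passed, had 649, 159 and 172 reads, where tested genes needed 20 over both libraries. The median log2 ratio of replicate 2 over replicate 1 was 0.27 over the 8 fat genes and -0.10 over all tested genes. With edgeR's TMM scaling the medians were 0.37 and 0.0020, and 211 genes were called higher and 47 lower. With DESeq2's size factors, 211 were called higher and 45 lower. In bulk tissue fewer fat cells and less RNA per fat cell cannot be told apart.

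Fabp4 was higher in replicate 2 by 0.40 ± 0.073 on the log2 scale (counting SE; Fisher's exact adjusted p = 1.83e-06). From known models alone the difference was 0.73.

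The genes of fat delivery did not pass the test. Lpl (ENSMUSG00000015568.16, chr8:68880491-68907448, plus strand) encodes lipoprotein lipase, which frees fatty acids from circulating triglyceride. It had 109 and 141 reads, or 158 and 174 CPM, a log2 ratio of 0.13 ± 0.18. Lpl-201, with 10 exons and 474 residues, held 97 and 118 of them, and 89.0% and 87.2% of Lpl reads had the whole coding chain. Lpl-203, annotated as a target of nonsense-mediated decay, had 0 and 3 reads, and a single-exon model of 1557 bases had 6 reads in replicate 1. The ends of the reads are not recorded, so these shares refer to the splice junctions and not to the 4115 bases of Lpl-201.

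Cd36 (ENSMUSG00000002944.15, chr5:17781690-17888801, minus strand) encodes the membrane receptor that takes up long-chain fatty acids. Its reads numbered 76 and 85, or 110 and 105 CPM, with a log2 ratio of -0.07 ± 0.23 that turned to 0.030 with TMM and to 0.031 with DESeq2's size factors. Cd36 came second to Fabp4 among the members in incomplete matches, at 55.3% and 64.7% of reads. A fragment of its last 2 exons, 1146 bases long, held 37 and 47 reads. The known models were divided over several first exons and 3′ ends around the same protein of 472 residues: Cd36-201 had 8 and 10 reads, Cd36-204 7 and 5, Cd36-202 4 and 2. A new combination of known splice sites with 16 exons had 8 reads in replicate 1. The whole coding chain was held by 43.4% (32.9 to 54.6) and 30.6% (21.8 to 41.0) of Cd36 reads.

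Plin1 (ENSMUSG00000030546.14, chr7:79720218-79732903, minus strand) encodes perilipin 1, which coats the lipid droplet and controls access of lipases to it. It had 183 reads in each library, or 266 and 226 CPM, a log2 ratio of -0.24 ± 0.15 (Fisher's exact adjusted p = 0.433). The transcripts Plin1-202, Plin1-206 and Plin1-201 all encode 517 residues and had 69, 39 and 14 reads in replicate 1 and 43, 50 and 17 reads in replicate 2. Plin1 differed from Fabp4 in the side that was missing. The start codon was held by 90.2% and 85.2% of its reads and the stop codon by 74.3% and 73.8%. A model of the first 6 exons, 999 bases long, took 18 reads in each library.

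Adipoq (ENSMUSG00000022878.5, chr16:23146536-23158028, plus strand) encodes adiponectin, a hormone that adipocytes secrete. It had 69 and 108 reads, or 100.2 and 133 CPM, higher in replicate 2 with a log2 ratio of 0.41 ± 0.22 (Fisher's exact adjusted p = 0.319). Adipoq-201, with 3 exons and 247 residues, held 59 and 95 reads. Single-exon fragments took most of the rest, as a genomic model with 9 reads in replicate 1 and an incomplete match with 10 reads in replicate 2. The share in incomplete matches was 1.45% and 10.2%, and the single-exon reads of replicate 1 fell outside it by their genomic label.

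**Figure D3:**
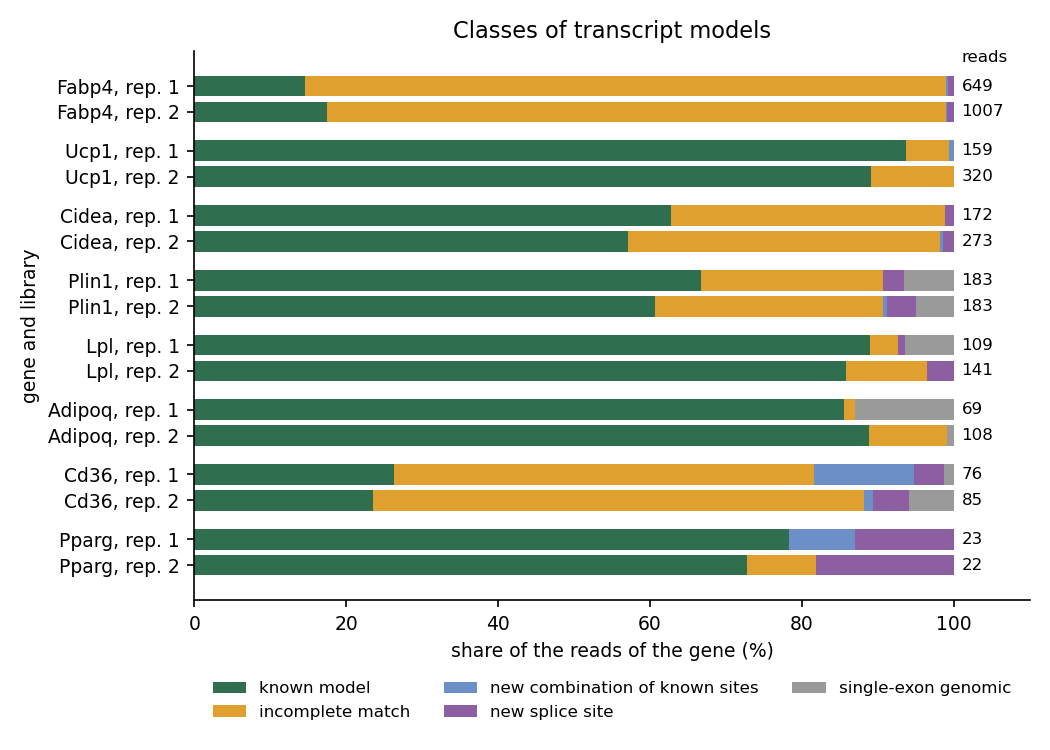
Share of the reads of each gene in each class of transcript model, by library, with the number of reads at the right. Incomplete matches take most of Fabp4 and of Cd36, and known models take most of Ucp1, Lpl, Adipoq, Pparg, Plin1 and Cidea in both libraries.

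Pparg (ENSMUSG00000000440.12, chr6:115360951-115490399, plus strand) encodes the nuclear receptor that directs adipocyte differentiation. It has a general form and a longer form, Pparg2, that is known for fat and begins at a promoter of its own. The gene had 23 and 22 reads, or 33.4 and 27.1 CPM, a log2 ratio of -0.30 ± 0.43 that is within its counting error. The first coding exon of Pparg2 (chr6:115422111-115422192) and the start of the coding sequence of the general form (chr6:115439848-115439907) are printed because they tell the forms apart, with the start codons in capitals (GENCODE M21, GRCm38, plus strand).
Pparg2: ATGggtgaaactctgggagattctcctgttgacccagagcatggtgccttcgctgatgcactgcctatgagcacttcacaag
Pparg1: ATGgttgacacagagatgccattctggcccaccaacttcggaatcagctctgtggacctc
Pparg-201 carries the Pparg2 start and encodes 505 residues, whereas Pparg-204 and Pparg-202 encode 475. Pparg-201 had 10 and 5 reads, Pparg-204 had 7 and 7, and Pparg-202 had 1 and 4. Pparg2 was therefore present in both libraries, in 10 of 23 reads or 43.5% (25.6 to 63.2) and in 5 of 22 reads or 22.7% (10.1 to 43.4). The intervals overlap, and the difference between the libraries was not tested. New models of Pparg began at or next to the annotated starts of the general form, and all but 2 reads of replicate 2 ran to the last exon. The coactivator gene Ppargc1a (ENSMUSG00000029167.13), which raises mitochondrial genes in brown fat, had its only read in the full-length Ppargc1a-203. Its 0 reads in replicate 1 allow up to 3 reads, or 4.36 CPM.

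Of the brown fat genes, Ucp1 and Cidea were among the more abundant members, and Ppargc1a was the lowest of those with reads. Ucp1 (ENSMUSG00000031710.4, chr8:83290352-83298452, plus strand), the uncoupling protein of brown fat mitochondria, had 159 and 320 reads, or 231 and 395 CPM. It was higher in replicate 2 by 0.77 ± 0.14 on the log2 scale (Fisher's exact adjusted p = 1.00e-06), which was the largest ratio among the 8 tested members. Its reads were mostly complete. Ucp1-201, with 6 exons and 307 residues, held 149 and 285 reads, and 93.7% and 89.1% of Ucp1 reads had the whole coding chain. A fragment of 4 exons and 668 bases held 6 and 26 reads.

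Cidea (ENSMUSG00000024526.9, chromosome 18, 67343604 to 67367785, plus strand) encodes a lipid droplet protein that is abundant in brown fat. It had 172 and 273 reads, or 249.8 and 337 CPM. The log2 ratio was 0.43 ± 0.14 (Fisher's exact adjusted p = 0.0330). The adjusted p was 0.0659 with no read minimum and 0.225 from known models alone, and over all alternatives it ran from 0.00279 to 0.225. Cidea-201, of 5 exons and 217 residues, held 108 and 156 reads. A fragment of 404 bases within the last exon held 61 and 106 reads, so that 62.8% and 57.1% of Cidea reads had the whole coding chain. Its incomplete share of 36.0% and 41.0% was above the 24.0% and 30.1% of Plin1 and the 5.66% and 10.9% of Ucp1. Lpl had 3.67% and 10.6%. Between the libraries, none of the 7 members with at least 50 reads in each was called for its incomplete share, where 3.16% of the 2813 genes were.

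**Figure D4:**
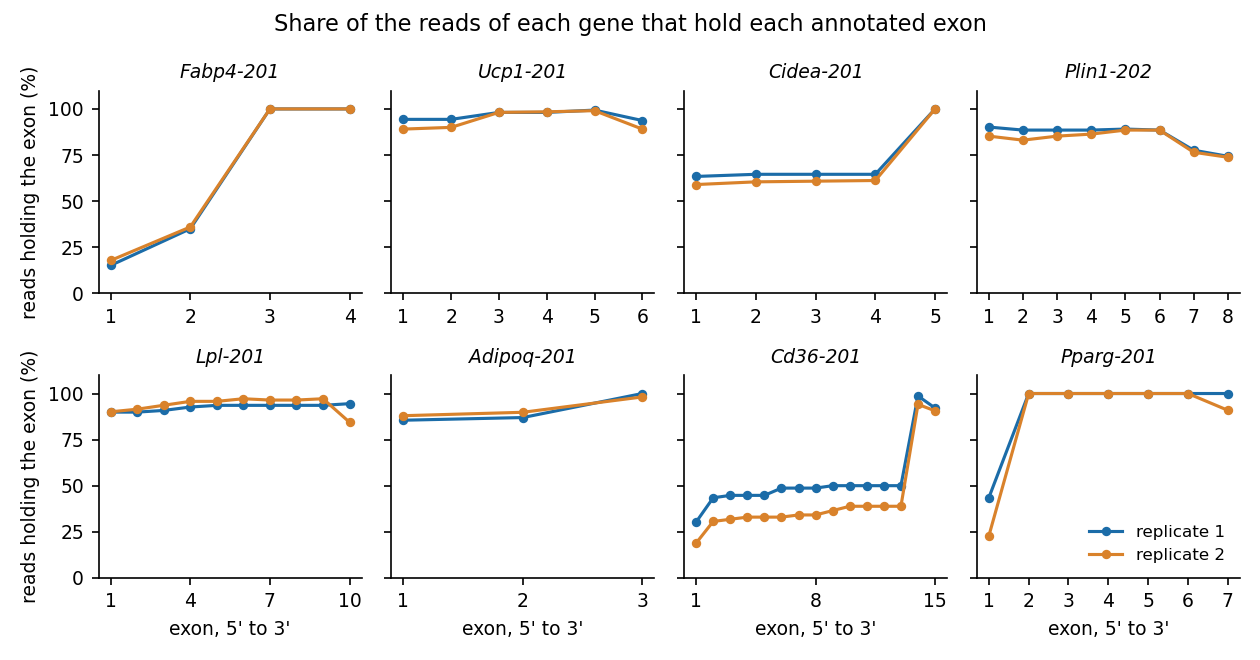
Share of the reads of each gene whose model holds at least 50% of each annotated exon, from the 5′ to the 3′ end of the transcript named above each panel, by library. Fabp4, Cidea and Cd36 rise steeply at their last exons, Plin1 falls there, and exon 1 of Pparg-201 is the Pparg2 start.

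Ucp1, Cidea and Ppargc1a together took 331 of 1440 fat gene reads in replicate 1, or 23.0% (20.9 to 25.2), and 594 of 2140 in replicate 2, or 27.8% (25.9 to 29.7). Without Fabp4, Lpl and Cd36, which other cell types also make, they took 54.6% (50.6 to 58.5) and 65.5% (62.3 to 68.5). Plin1 held 183 of the 606 reads left in replicate 1 and 183 of the 907 left in replicate 2. Whether fat cells alone made the genes left was not tested, so these are shares of reads and not of fat cells. From known models alone the mean share of all fat gene reads was 41.7%.

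Genes of lipid handling in fat cells were also present, and which cells of the gland made them was not tested. Of 20 genes of adipocyte lipid handling, all were found in both libraries and summed to 1817 and 1931 CPM. The most abundant were Agpat2, an acyltransferase of triglyceride synthesis, at 344 and 324 CPM, and Gpd1, which makes glycerol phosphate, at 254 and 275 CPM. They were followed by the triglyceride lipase gene Pnpla2 at 221 and 142 CPM and the lipogenic gene Thrsp at 160 and 153 CPM. Of 18 tested, 1 was higher and 1 lower in replicate 2 on the adjusted p, against 7.93% of all tested genes. Acsl1, which activates fatty acids, had a log2 ratio of 1.53 (Fisher's exact adjusted p = 1.93e-05) and Pnpla2 a ratio of -0.64 (adjusted p = 0.00729). The median of the list was 0.20. The adipocyte markers in the list were less abundant than its leading genes: Cidec had 44 and 72 reads, Lipe 16 and 33, and Cfd 9 and 25.

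Of 20 further genes of brown fat thermogenesis, 15 were found in both libraries. They summed to 689 and 963 CPM, led by the mitochondrial subunit genes Cox8b at 167 and 281 CPM and Cox7a1 at 182 and 228 CPM, then the mitochondrial protein gene Letmd1 at 110 and 110 CPM and the nuclear receptor gene Esrra at 63.9 and 91.3 CPM. Of 9 tested, 3 passed on the adjusted p, where 7.93% of all tested genes did and 3.83% did in the same direction. They were all higher in replicate 2: Cox8b with a log2 ratio of 0.75, the fatty acid carrier gene Fabp3 with 2.73 and the glycerol kinase gene Gk with 2.00. Muscle also makes Cox8b, Cox7a1 and Fabp3, and liver makes Gk, and the part of either tissue in these differences was not tested. The regulator genes Prdm16 and Ebf2 had 4 and 5 reads in replicate 1 and 9 and 7 reads in replicate 2. Dio2, which activates thyroid hormone, had 1 and 1, and Zic1 and Bmp8b had 0 reads in both, which allows up to 4.36 and 3.70 CPM.

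The list of 10 white fat genes summed to 203 and 344 CPM, and its levels were uneven. Of the markers that define white adipocytes, the leptin gene Lep had 5 and 1 reads, the resistin gene Retn 1 and 0, and Slc7a10 7 and 6, and some brown fat genes were as low, with Dio2 at 1 read in each library. Tcf21, a transcription factor gene of mesenchyme, had 108 and 75.2 CPM, and Agt, the angiotensinogen gene, 8.72 and 174 CPM. Hoxc8 had 27.6 and 46.9 CPM and the synuclein gene Sncg 13.1 and 23.4 CPM. Of 4 tested, Agt alone was called, against 3.23% of all tested genes, with a log2 ratio of 4.24. Liver also makes Agt, and all 8 liver genes were called in the same direction with a median ratio of 5.78. Which tissue the Agt reads came from was not tested.

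Partners of the members in lipid uptake and nuclear receptor function summed to 780 and 682 CPM over 14 genes. The fatty acid transporter gene Slc27a1 led at 273 and 199 CPM, before the fatty acid carrier gene Fabp5 at 55.2 and 114 CPM, the lipase maturation gene Lmf1 at 98.8 and 44.4 CPM and the lipase inhibitor gene Angptl4 at 75.5 and 65.4 CPM. Of 11 tested, 2 were called, against 3.23% of all tested genes: Fabp5 was called higher with a log2 ratio of 1.03 and Lmf1 lower with -1.14 in replicate 2, and Slc27a1 passed the adjusted p alone with -0.46. The median of the list was -0.21. The Pparg partner gene Rxra had 24.7 and 30.8 CPM.

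Markers of the other cells that make Fabp4, Lpl and Cd36 were read beside them. The 10 endothelial genes all had reads and summed to 880 and 866 CPM. On the adjusted p, 0 of 7 tested genes were higher and 1 lower in replicate 2, against 7.93% of all tested genes. The lower gene was Pecam1, at a log2 ratio of -1.42. Plvap, of the diaphragms of fenestrated capillaries, led the endothelial genes at 456 and 397 CPM. It was followed by Egfl7 at 182 and 209.7, Gpihbp1 at 53.7 and 81.4, and Tie1 at 55.2 and 69.1 CPM. Other endothelial markers were low, with Cdh5 at 4 and 7 reads, Kdr at 4 and 19, Tek at 5 and 7 and Flt1 at 3 and 5. The 10 macrophage genes all had reads and summed to 376 and 374 CPM, and 0 of 6 tested passed, where 7.93% of all tested genes did. With so few genes tested, these counts do not set either list apart from all tested genes. The complement gene C1qa had 106 and 95.0 CPM, C1qc 90.1 and 75.2, C1qb 66.8 and 62.9 and Lyz2 45.0 and 72.8 CPM. Other macrophage markers were low, with Adgre1 at 6 and 6 reads, Cd163 at 8 and 10, Mrc1 at 5 and 1 and Marco at 1 and 7.

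Among striated muscle genes 5 of 8 tested passed the adjusted p (7.93% of all tested genes did), all higher in replicate 2, with a list median of 0.83. Acta1, the skeletal actin gene, had 858 and 1394 CPM, Ckm 309 and 499.5, Mylpf 183 and 446, and Atp2a1 157 and 274 CPM. Among adrenal cortex genes 5 of 6 passed, all lower in replicate 2, with a median of -0.58. The steroid enzyme genes Cyp21a1, Cyp11a1, Hsd3b1 and Cyp11b1 led them, at 18259 and 9696, 11664 and 11396, 8179 and 4927 and 5370 and 3413 CPM in replicates 1 and 2. The liver genes Ahsg, Alb, Apoa1 and Afp had 59.6, 69.7, 78.4 and 17.4 CPM in replicate 1 and 3778, 3680, 2562 and 1163 CPM in replicate 2.

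**Figure D5:**
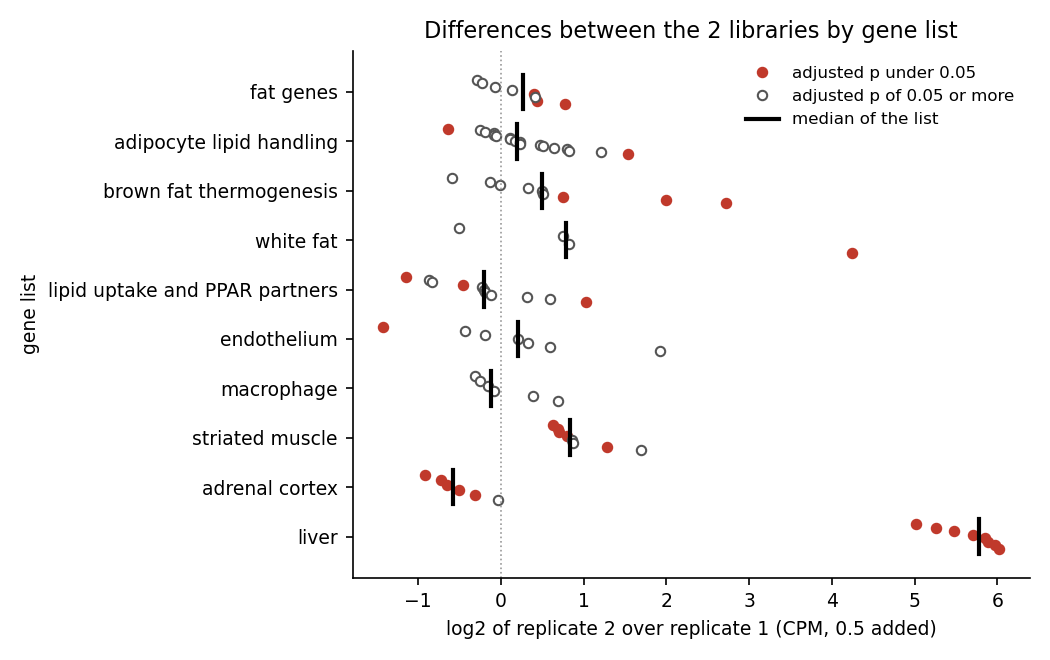
Log2 ratio of replicate 2 over replicate 1 for each tested gene of each list, with 0.5 CPM added; filled points passed an adjusted p under 0.05 by Fisher's exact test, and black lines are list medians. The fat genes have a median of 0.27, against 0.83 for striated muscle, -0.58 for adrenal cortex and 5.78 for liver.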

How the data were processed

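Per the file headers, each library's deposited table holds the raw count of long reads for every transcript model, with classes named by the TALON program. The deposited file descriptions say that the counts come from filtered alignments to mm10 with the GENCODE M21 annotation; aligner, tool versions and filters: not given in the sources used here. Exon positions, counted from 1 and holding no measurement, came from the authors' annotation files. GENCODE M21 (GRCm38) gave gene positions and sequences.

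The members and gene lists were chosen with earlier results of these data known. Reads were summed per gene, and CPM used all mouse reads, spike-ins left out. Reads of a gene against all others were compared by a two-sided Fisher's exact test with Benjamini-Hochberg adjustment over genes with at least 20 reads in total. A call needed an adjusted p below 0.05 and, after adding 0.5 CPM, a log2 ratio of 1 or more in size. With 1 library on each side, this compares these libraries and covers counting error only. Incomplete shares were compared likewise over genes with at least 50 reads in each library, with a minimum difference of 10 points. An exon counted as held at 50% overlap. Every member was named. Models were named mainly from those of at least 5 reads over both libraries, but not all of those were named. Of each other list, the 4 most abundant genes, called genes and markers at 0 were named. Genes outside that rule (Prdm16, Ebf2, Dio2, Lep, Retn, Slc7a10, Rxra, Cidec, Lipe, Cfd) were named after their values were seen. So were Cdh5, Kdr, Tek, Flt1, Adgre1, Cd163, Mrc1 and Marco. Alternatives were TMM (edgeR 4.0.16), DESeq2 1.42.0 size factors, other minimums and added CPM, and other sets of models. Python 3.11.15, scipy 1.17.1 and R 4.3.3 were used, and both tests were checked on simulated data.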

Additional observations from a re-analysis of the deposited data

Results flagged for a closer look

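Reads on the strand opposite to Plin1 were counted in models that the gene's own level does not use. A single-exon model at chr7:79720218-79721164, on the plus strand, held 26 reads in replicate 1 and 47 reads in replicate 2. It was flagged because both counts exceeded 3 reads, the limit for a count of 0, which is no background level for the opposite strand. Its recorded ends are the annotated 3′ ends of Plin1-206 and of Plin1-201 and Plin1-202, so they may not be those of single reads. Other models opposite to the fat genes held 1 to 3 reads each.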

How the results depend on the processing

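With known models alone, the summed level of the fat genes was 1518 CPM and the brown share 41.7%; without Fabp4, Lpl and Cd36 the brown share was 60.1% as a mean of the libraries. The mean share of incomplete Fabp4 reads with the last exon fell to 38.2% at 90% of the exon. Genes called between the libraries numbered 161 at a read minimum of 50 and 211 to 285 in the other alternatives, against 267, and the number of called fat genes was 0 in every alternative. The log2 ratio of Cd36 turned to 0.030 with TMM and to 0.031 with DESeq2's size factors. Cidea lost its adjusted p with no read minimum (0.0659) and from known models alone (0.225), and Fabp4 and Ucp1 passed in every alternative. With known models alone the means of Fabp4, Adipoq, Plin1, Lpl and Cd36 were 248, 142, 217, 201 and 37.2 CPM, and those of Ucp1 and Cidea 397 and 243 CPM, so that Ucp1 and not Fabp4 came first. With 2 libraries, leaving out 1 gives the value of the other, so it is no check of stability. No paired analysis was possible because there is 1 group. The depth of 1.45 and 1.23 CPM per read limits Pparg and Ppargc1a most.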
